A study of Mus musculus with 12 samples.

Results

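RNA polymerases I, II and III are the multi-subunit enzymes that copy nuclear DNA into RNA. Pol I makes the ribosomal RNA precursor, Pol II makes messenger RNA, and Pol III makes 5S ribosomal RNA, transfer RNA and other short RNAs. Each has a pair of large catalytic subunits of its own, a set of smaller subunits of its own, and subunits that it shares with the others. The genes described here were all rows of the count table whose mouse symbol begins with Polr1, Polr2 or Polr3 and a letter, with a total of at least 10 counts over the 12 libraries. They were 28 of 24421 genes in the table, and all 28 were among the 11468 genes that passed the filter on low counts. By textbook assignment 3 belonged to Pol I alone, 8 to Pol II alone, 10 to Pol III alone, 2 to Pol I and Pol III, and 5 to all of them.

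Total RNA was sequenced from macrophages grown out of the bone marrow of C57BL/6 mice (BMDMs) over 5 days with M-CSF at 100 ng/mL. Every culture was given either ovalbumin alone (Ova) or ovalbumin in a complex with IgG (IC), which engages Fcγ receptors, for 4 h, and either I-BET151 (iBET) at 5 µM or its vehicle DMSO. The 4 groups (DMSO with Ova, DMSO with IC, iBET with Ova and iBET with IC) held 3 libraries each, 1 from each of mice A, B and C. I-BET151 blocks the bromodomains of BET proteins, which bind acetylated histones and help to release paused Pol II, so the question asked here was how the messages for the polymerases themselves stood with and without the drug and with and without IC.

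Library totals ran from 7549849 to 17387639 counts. In mouse A's DMSO Ova library, 77.4% of the counts fell on Rn45s, the gene of the ribosomal RNA precursor, which left 1768133 counts for all other genes. The other libraries had 1.41 to 7.83% there. The 8 macrophage markers, among them Csf1r, Adgre1 and Lyz2, were present in all 12 libraries. Their summed level was 6569 to 7674 CPM (counts scaled to a common library size) in DMSO Ova and 7136 to 8484 in iBET Ova. In IC it was 6325 to 7237 with DMSO and 7741 to 8454 with iBET. Lyz2 was the highest, at 2613 to 4361 CPM, and Mertk the lowest, at 5.72 to 31.8 CPM. By the edgeR test described below, iBET raised Mertk in Ova, and Mertk and Lyz2 in IC. Over fits without 1 library the number of these markers called ran from 0 to 2 in Ova and from 1 to 4 in IC. Without both DMSO libraries of mouse A, 0 were called higher and 1 lower in Ova, and 1 higher and 0 lower in IC. With the mouse as a block, 2 were called higher in Ova and 3 in IC. Fcgr1 was then called lower in both (log2 -0.50 and -0.74). Of 12 markers of other cells, Hbb-bs of red cells was at 0 in every library, and S100a9 of neutrophils, at 5.55 to 27.6 CPM, was the highest. The summed level of these 12 was 6.16 to 32.5 CPM in DMSO Ova, 9.49 to 32.0 in iBET Ova, 7.74 to 26.9 in DMSO IC and 8.62 to 24.9 in iBET IC.

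All levels below are CPM after TMM scaling of the library sizes, so each is relative to the other genes and not an amount per cell. The TMM factor was 0.249 for mouse A's DMSO Ova library and 1.048 to 1.231 for the others, so CPM are not plain shares of the counts. Fewer cells with a message and less of it per cell cannot be told apart. Changes are log2 fold changes from edgeR's quasi-likelihood test, with the Benjamini-Hochberg adjusted p over all 11468 genes, and 0.05 was the threshold below which a change counts as called.

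Exon length here is the union of all annotated exons of a gene and not the length of a single transcript. Levels per kilobase and their ratios between genes therefore depend on the annotation. Per kilobase of exon, Polr2a had the highest level of the subunits. This gene encodes the largest Pol II subunit, which carries the catalytic centre and the repeated C-terminal tail. It averaged 90.9 CPM per kb over the 12 libraries, with a range of 43.3 to 147. Next came Polr2k, at 28.8 and shared by all of the enzymes, then Polr2b, the second largest Pol II subunit, at 28.5, and Polr2m at 27.9. The ranges of these 3 overlapped. These means pool the libraries with and without the drug. By group, Polr2a was at 46.3 CPM per kb in DMSO Ova, 45.3 in DMSO IC, 142 in iBET Ova and 130 in iBET IC. With DMSO, Polr2m came next, at 32.2 in Ova and 34.5 in IC. The largest Pol I subunit, Polr1a, averaged 11.5 CPM per kb, and the largest Pol III subunits, Polr3a and Polr3b, averaged 6.28 and 6.23. Near the low end were Polr1e at 2.38 and Polr2h at 2.12 CPM per kb.

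The main response to the drug among the subunits was a rise of Polr2a. It stood at 306, 326 and 350 CPM in the DMSO Ova libraries of mice A, B and C, and at 973, 1041 and 992 CPM in the iBET Ova libraries. After IC it was at 326, 323 and 313 CPM with DMSO and at 929, 933 and 895 CPM with iBET. Every iBET library was above every DMSO library. The change was 3.06-fold in Ova (log2 1.61 ± 0.09 SE, adjusted p = 2.36e-07) and 2.87-fold in IC (log2 1.52 ± 0.09, adjusted p = 3.03e-07), upward in 3 of 3 mice in both. IC itself left the Polr2a level with a log2 change of -0.03 (95% interval -0.22 to 0.15) in DMSO and -0.12 (-0.31 to 0.06) in iBET.

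Polr2b, which forms the active site together with Polr2a, rose by less. Its levels were 123.3, 103.7 and 102.6 CPM in DMSO Ova against 152.9, 159.6 and 172.3 CPM in iBET Ova, and 124.6, 98.9 and 104.9 CPM in DMSO IC against 162.8, 140.5 and 149.8 CPM in iBET IC. The groups with and without the drug did not overlap. The fold was 1.48 in Ova (log2 0.56 ± 0.12 SE, adjusted p = 0.00278) and 1.38 in IC (log2 0.46 ± 0.11, adjusted p = 0.00739). An exon of Igfbp7 overlaps Polr2b on the opposite strand, and the strand setting of the counting is not given in the sources used here, so reads of both genes could have been counted together. The same holds for Polr1a, Polr2c, Polr2f, Polr2h, Polr2i, Polr2j, Polr3b and Polr3gl, which also overlap an exon on the opposite strand, and for the ratios that use them.

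The proportion within the Pol II catalytic pair separated the DMSO from the iBET libraries. The ratio of Polr2a to Polr2b, each per kb of exon, was 1.99 ± 0.314 (SD, n = 3) in DMSO Ova and 1.95 ± 0.214 in DMSO IC, against 4.10 ± 0.267 in iBET Ova and 4.03 ± 0.316 in iBET IC. Of the counts on the 8 subunits of Pol II alone, Polr2a took 48.5 to 57.5% in the DMSO libraries and 75.8 to 78.3% in the iBET libraries. The least deep of these, mouse A's with DMSO and Ova, held 596 Polr2a counts of 1228, a share of 48.5% with a 95% Wilson interval of 45.7 to 51.3% that covers counting error only.

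Polr2m moved in the opposite direction. It encodes a Pol II-associated protein, also known as Gdown1, that competes with the general factor TFIIF for the enzyme. Its levels were 69.3, 84.3 and 80.2 CPM in DMSO Ova, 57.4, 50.2 and 42.1 CPM in iBET Ova, 70.3, 89.8 and 91.0 CPM in DMSO IC and 58.0, 61.4 and 57.9 CPM in iBET IC. All 6 iBET libraries were below all 6 DMSO libraries. The level was 1.57-fold lower in Ova (log2 -0.65 ± 0.14 SE, adjusted p = 0.00306) and 1.42-fold lower in IC (log2 -0.50 ± 0.13, adjusted p = 0.0113).

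The other subunits of Pol II alone were Polr2c and Polr2j, which form the assembly platform, Polr2d and Polr2g, which form the stalk that meets the emerging RNA, and Polr2i, which aids start site choice and proofreading. None of them was called in either drug comparison by the edgeR test described above. Polr2d was close to level, with a log2 change of -0.07 (95% interval -0.39 to 0.24) in Ova and 0.03 (-0.28 to 0.33) in IC. Polr2c had the largest changes among the uncalled members, -0.74 in Ova (adjusted p = 0.176) and -0.88 in IC (adjusted p = 0.0897). With DMSO and Ova it was at 60.1 CPM in mouse A, against 19.2 and 25.0 CPM in mice B and C. In IC it was called by DESeq2 (adjusted p = 0.0364), by DESeq2 with the mouse as a block (0.0117), with 1 surrogate variable (0.00485) and with the compared groups alone (0.0314), and not with the block in edgeR (0.0691). Without both DMSO libraries of mouse A, Polr2c in IC was called with a smaller change (log2 -0.57, adjusted p = 0.0219), as it was without the Ova one alone (adjusted p = 0.01) and without all libraries of mouse A (adjusted p = 0.0142).

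Pol I gave 1 called subunit. Polr1b, the second largest, which builds the catalytic centre with Polr1a, was at 27.7, 20.9 and 21.1 CPM in DMSO Ova and at 14.5, 10.7 and 11.5 CPM in iBET Ova. After IC it was at 26.3, 33.2 and 33.8 CPM with DMSO and at 13.7, 16.2 and 16.3 CPM with iBET. Both pairs of groups were separate. It fell 1.84-fold in Ova (log2 -0.88 ± 0.17 SE, adjusted p = 0.00195) and 2.03-fold in IC (log2 -1.02 ± 0.16, adjusted p = 0.000474), in 3 of 3 mice in each.

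Polr1a, its partner, stood at 151, 128 and 122 CPM in DMSO Ova and at 120, 129 and 136 CPM in iBET Ova. After IC it was at 156, 144 and 146 CPM with DMSO and at 138, 142 and 131 CPM with iBET. The Ova groups overlapped, and the IC groups were separate by a narrow gap. The change was -0.05 on the log2 scale in Ova (95% interval -0.27 to 0.16, adjusted p = 0.722) and -0.12 in IC (-0.34 to 0.09, adjusted p = 0.371). The ratio of Polr1b to Polr1a per kb was 0.354 ± 0.021 (SD, n = 3) in DMSO Ova and 0.429 ± 0.0743 in DMSO IC, and 0.197 ± 0.0438 in iBET Ova and 0.230 ± 0.0266 in iBET IC. Polr1e, the third subunit of Pol I alone and a partner in initiation, was not called, at -0.20 on the log2 scale in Ova (adjusted p = 0.484) and -0.37 in IC (adjusted p = 0.151).

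**Figure D1:**
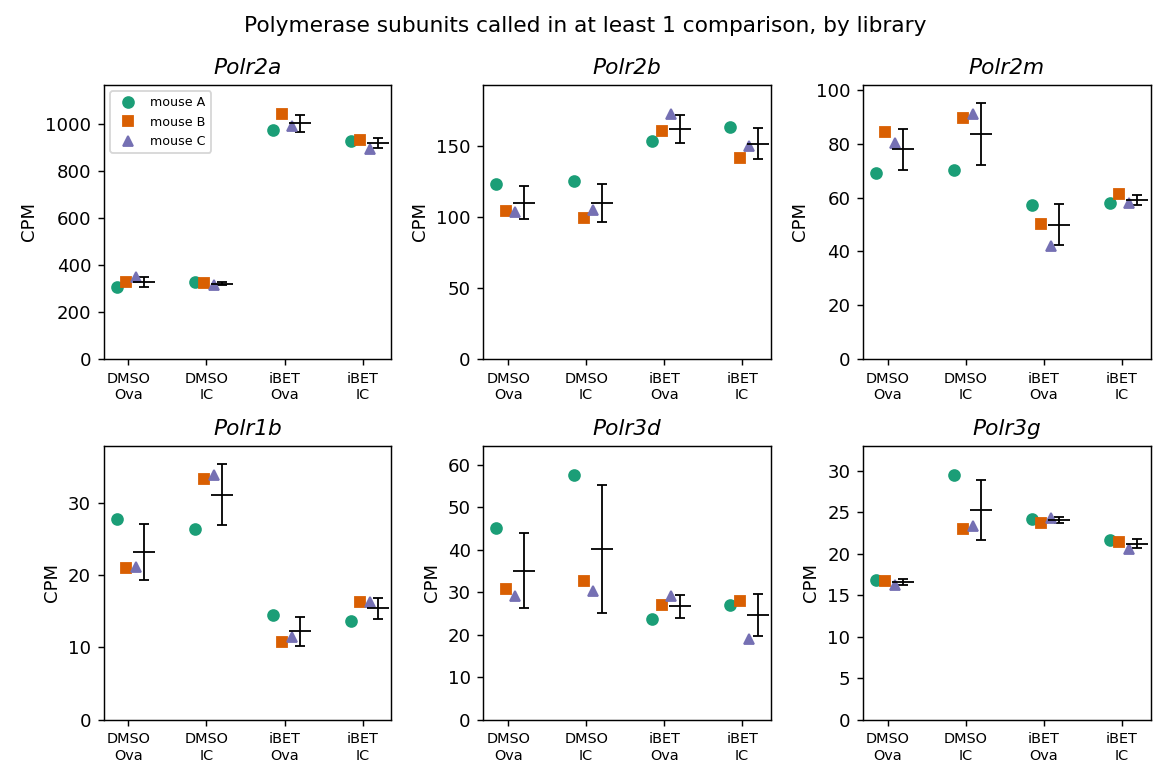
Level in CPM (linear axis from 0) of the 6 subunits called in at least 1 comparison, in the 3 libraries of each group; symbols mark the mouse, and the black bar is the mean ± SD. Polr2a sits at 306 to 350 CPM in the DMSO libraries and 895 to 1041 CPM in the iBET libraries, while Polr1b and Polr2m are lower with the drug.

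Pol III gave 2 called subunits, each in 1 of the drug comparisons. Polr3g, one of a pair of alternative subunits with Polr3gl, was at 16.9, 16.7 and 16.2 CPM in DMSO Ova and at 24.2, 23.7 and 24.3 CPM in iBET Ova. After IC it was at 29.5, 23.0 and 23.4 CPM with DMSO and at 21.7, 21.4 and 20.6 CPM with iBET. The DMSO Ova libraries were thus the lowest of the 12, and the other 3 groups lay above them. iBET raised it 1.45-fold in Ova (log2 0.54 ± 0.12 SE, adjusted p = 0.00539), and in IC the log2 change was -0.25 ± 0.12 (adjusted p = 0.114), lower in 3 of 3 mice.

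IC raised Polr3g 1.53-fold in DMSO (log2 0.61 ± 0.12 SE, adjusted p = 0.0331), higher in 3 of 3 mice, and in iBET its log2 change was -0.18 ± 0.12 (adjusted p = 0.811), lower in 3 of 3 mice. The test of the difference between the 2 responses gave log2 -0.79 ± 0.17 with an unadjusted p of 0.000498, and an adjusted p of 0.816 by the same edgeR test. The call of IC in DMSO was fragile: it held in 1 of 12 fits that left out a single library, the one without mouse B's DMSO IC library, and the adjusted p reached 0.151 without mouse B's DMSO Ova library. It did not hold with any mouse left out.

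Polr3gl, the form that most cells carry, was at 29.8, 11.4 and 9.12 CPM in DMSO Ova and at 9.72, 11.0 and 12.9 CPM in iBET Ova. After IC it was at 20.5, 9.24 and 8.67 CPM with DMSO and at 8.33, 10.8 and 8.63 CPM with iBET. The groups overlapped, and the DMSO libraries of mouse A were the 2 highest. Its change with iBET was -0.41 (95% interval -1.37 to 0.55) in Ova and -0.48 (-1.40 to 0.44) in IC. The ratio of Polr3g to Polr3gl per kb was 0.231, 0.594 and 0.719 in DMSO Ova and 0.765 to 1.01 in iBET Ova. After IC the groups overlapped, at 0.586, 1.01 and 1.10 with DMSO and 0.808 to 1.06 with iBET.

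Polr3d, which pairs with Polr3e in a module for initiation and termination, was the other called subunit of Pol III. It was at 57.6, 32.6 and 30.3 CPM in DMSO IC and at 27.0, 27.9 and 19.1 CPM in iBET IC, and the groups did not overlap. The level was 1.63-fold lower (log2 -0.70 ± 0.25 SE, adjusted p = 0.0466). In Ova it was at 45.2, 30.7 and 29.2 CPM with DMSO and at 23.8, 27.0 and 29.2 CPM with iBET, and the change was not called (log2 -0.35 ± 0.26, adjusted p = 0.330). The call in IC held in 3 of 12 fits without a single library, those without mouse A's DMSO Ova library or the DMSO IC library of mouse B or C. It did not hold with any mouse left out (highest adjusted p = 0.121, without mouse B). Without both DMSO libraries of mouse A the change was -0.37 (adjusted p = 0.0704).

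The catalytic pair of Pol III was not called in any comparison. Polr3a, the largest subunit, was at 38.5, 35.0 and 37.3 CPM in DMSO Ova, 33.3, 35.3 and 27.9 CPM in iBET Ova, 36.1, 45.2 and 42.7 CPM in DMSO IC and 36.3, 39.1 and 32.1 CPM in iBET IC, with log2 changes with the drug of -0.19 (95% interval -0.47 to 0.08) and -0.20 (-0.47 to 0.07). Polr3b was at 41.1, 32.1 and 31.0 CPM in DMSO Ova, 31.3, 40.5 and 36.7 CPM in iBET Ova, 33.0, 30.0 and 25.5 CPM in DMSO IC and 30.8, 29.0 and 32.4 CPM in iBET IC, with changes of 0.08 (-0.23 to 0.39) and 0.06 (-0.25 to 0.36). Both overlapped between the groups with and without the drug.

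Polr3c, Polr3e, Polr3f and Polr3k, further subunits of Pol III, were not called with the drug, and their changes ran from 0.01 to 0.40 on the log2 scale. Polr3c and Polr3f sit with Polr3g in the module that opens the promoter, and Polr3k is needed to end transcripts. Polr3e came nearest to the threshold in Ova, at 0.40 ± 0.14 (adjusted p = 0.053), and passed it with the mouse as a block in edgeR (adjusted p = 0.044), with 1 surrogate variable (0.0454) and without mouse B's DMSO Ova library (0.0199). It did not pass with the block in DESeq2 (adjusted p = 0.0857) or with the block and the length trend removed (0.0594). Polr3f was the steadiest, with log2 changes of 0.14 (95% interval -0.06 to 0.33) and 0.13 (-0.06 to 0.32).

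The 7 subunits that serve more than 1 enzyme were not called in any comparison. Polr1c and Polr1d, which form the scaffold of Pol I and Pol III, changed by 0.36 and 0.14 on the log2 scale in Ova and by 0.18 and -0.21 in IC. Polr2e, Polr2f, Polr2h, Polr2k and Polr2l, found in every enzyme, ran from -0.13 to 0.10 in Ova and from -0.46 to 0.08 in IC. Some intervals were wide. In Ova that of Polr2h, the least abundant of the 7 with a mean of 3.2 CPM, ran from -0.80 to 0.54. That of Polr1d, the most abundant with a mean of 34.7 CPM, ran from -0.56 to 0.84. A fall of about the size of that of Polr2m lies within the interval of Polr2h, so it could have gone undetected.

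**Figure D2:**
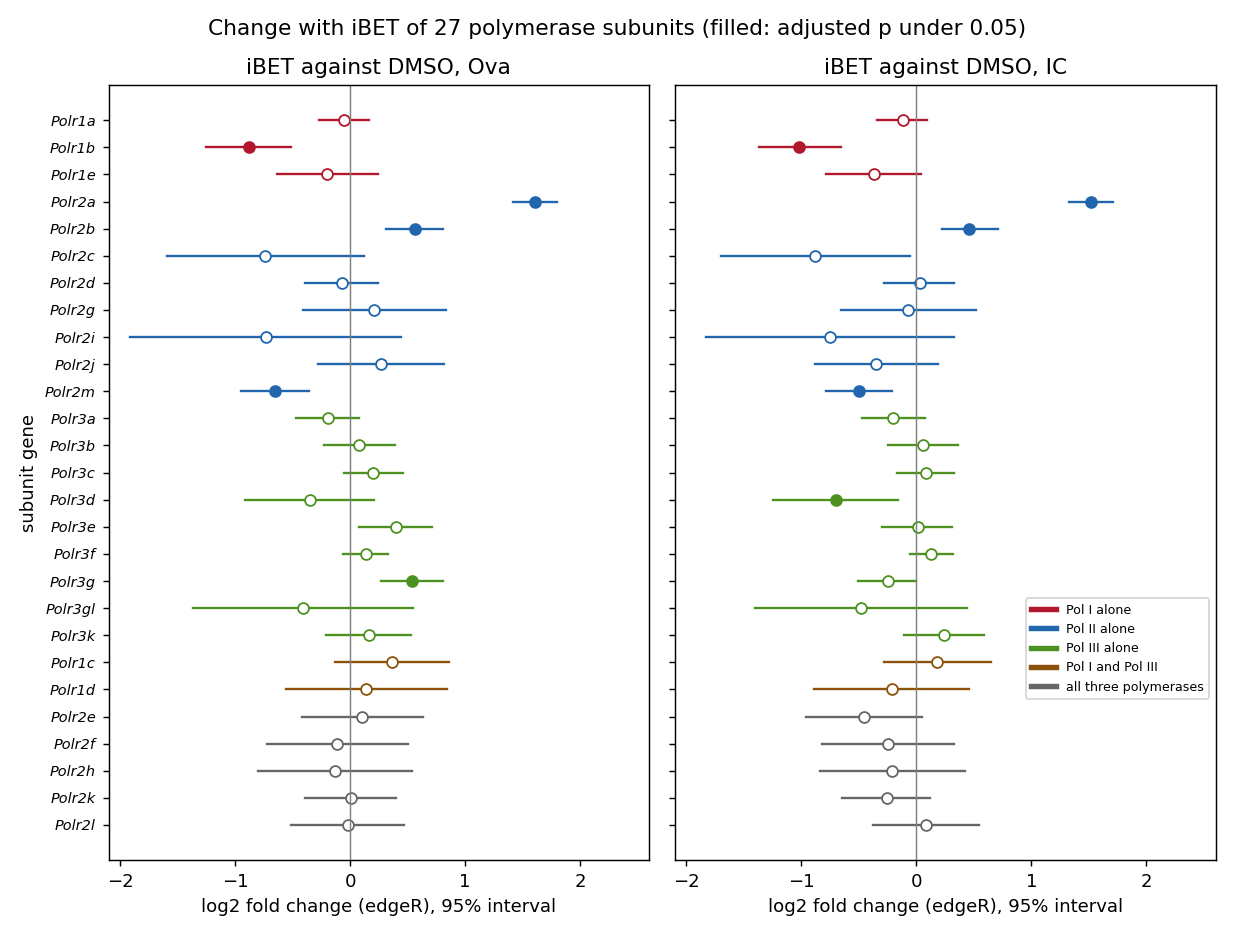
Log2 fold change with iBET (point) and its 95% interval (line) for 27 of the 28 subunits, in Ova on the left and IC on the right, colored by the polymerase they belong to; filled points have an adjusted p under 0.05. Polr2a lies at 1.61 and 1.52, and 22 of 27 points in each panel are open.

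Counted together, 5 of 28 subunits, or 17.9%, were called with iBET in Ova, where 31.3% of all genes tested were. 3 were higher (17.1% of all genes) and 2 lower (14.2%). In IC 5 of 28, or 17.9%, were called, where 34.8% of all genes were, with 2 higher (19.0% of all genes) and 3 lower (15.8%). Polr2a, Polr2b, Polr1b and Polr2m were called the same way in both, and those calls held in all 12 fits that left out a single library. Whole mice weighed more. Polr2a was called with any mouse left out (highest adjusted p = 0.00219), whereas without mouse B or mouse C Polr2b and Polr2m lost both calls and Polr3g its call in Ova, and Polr1b lost its call in Ova without mouse B (adjusted p = 0.0586). Polr3d lost its call in IC whichever mouse was left out. The calls over all genes in Ova fell from 3593 to 1310 without mouse B and to 2031 without mouse C. Without mouse A they rose to 3858, with Polr1c and Polr2g added among the subunits. For IC against Ova, 1 of 28 (3.57%) was called in DMSO, where 1.22% of all genes were called and 0.732% were called higher, and none of 28 in iBET, where 0.349% of all genes were called and no subunit had an unadjusted p under 0.05. In DMSO 3 subunits had one: Polr3g, Polr3e (log2 0.49 ± 0.14, adjusted p = 0.149) and Polr1b (0.46 ± 0.17, adjusted p = 0.262). Polr1b was called without mouse A (log2 0.68, adjusted p = 0.0266), in which its change was -0.08, against 0.67 and 0.68 in mice B and C. For a difference between the drug responses in Ova and IC, edgeR called no gene, subunit or other (0.0% of genes), and 1 without mouse B's iBET IC library; 1 subunit, Polr3g, and 292 genes in all had an unadjusted p under 0.05. DESeq2 called 4 genes, and 6 with the mouse as a block, none of them a subunit, and gave Polr3g an adjusted p of 0.288. The 2 drug comparisons share no library, but each shares libraries with both IC comparisons.

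Compared enzyme by enzyme, the 3 subunits of Pol I alone had a median log2 change with iBET of -0.20 in Ova and -0.37 in IC, with 3 of 3 negative in both. The 8 of Pol II alone had 0.07 and -0.21, and the 10 of Pol III alone 0.13 and -0.10. The median over all genes tested was 0.02 in Ova and -0.00 in IC. For IC against Ova the medians of Pol I, II and III were 0.30, 0.06 and 0.17 in DMSO and 0.12, -0.04 and -0.05 in iBET, against -0.01 over all genes in both. In DMSO 24 of 28 subunits had a positive change with IC, beside 5537 of all 11468 genes tested. In iBET 14 of 28 did, beside 5474 of 11468. Without both DMSO libraries of mouse A, Polr2b, Polr2d, Polr2h, Polr2i and Polr2j turned negative with IC in DMSO. Their changes there were -0.02 to -0.29, and no subunit turned positive.

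By library, the mean log2 CPM of the Pol I subunits was 4.98, 4.84 and 4.95 in DMSO Ova and 5.25, 5.26 and 5.19 in DMSO IC, and 4.66, 4.52 and 4.47 in iBET Ova and 4.68, 4.84 and 4.69 in iBET IC. It was lower with iBET in 3 of 3 mice in both, by a mean of -0.37 ± 0.09 (SD, n = 3) in Ova and -0.49 ± 0.07 in IC, with Polr1b the only called one of the 3. Without Polr1b the mean of the other 2 changed by -0.10 ± 0.16 in Ova, lower in 2 of 3 mice, and by -0.24 ± 0.14 in IC, lower in 3 of 3. For Pol II alone the mean changed by 0.05 ± 0.34 in Ova and -0.03 ± 0.22 in IC, and without Polr2a by -0.17 ± 0.39 and -0.25 ± 0.26. For Pol III alone it changed by 0.06 ± 0.21 and -0.11 ± 0.17. The changes of Pol II and Pol III were thus smaller than the spread between mice.

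**Figure D3:**
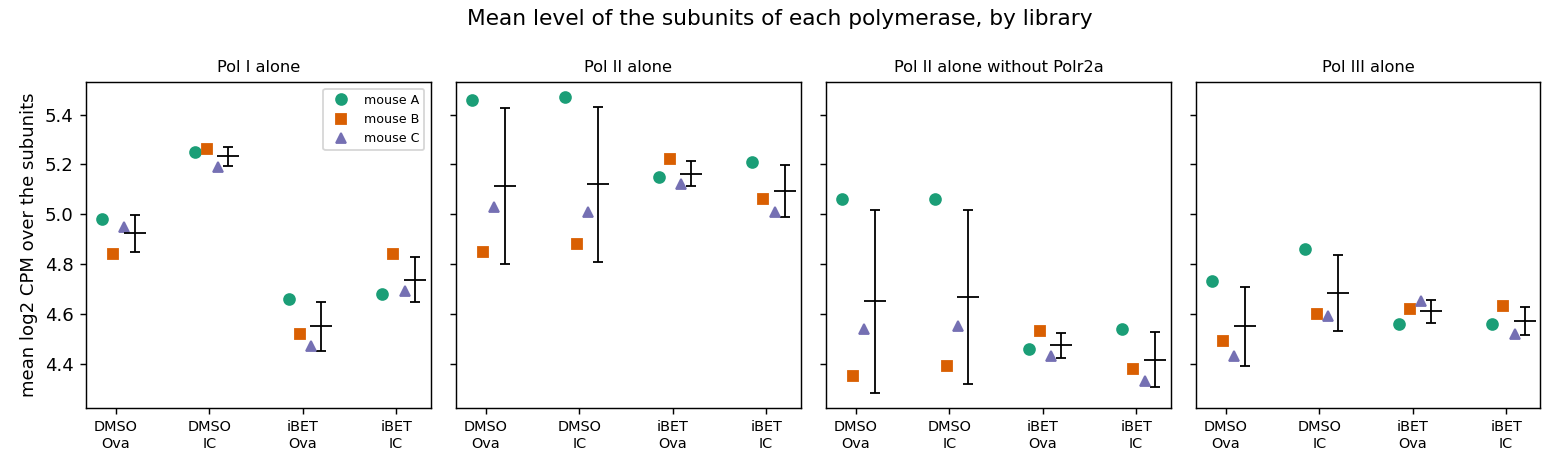
Mean log2 CPM over the subunits that belong to 1 polymerase alone, by library, with Pol II shown with and without Polr2a; symbols mark the mouse, and black bars are the mean ± SD of 3. Pol I runs from 4.47 to 4.84 in the iBET libraries and from 4.84 to 5.26 in the DMSO libraries, and the DMSO libraries of mouse A are the highest for Pol II.

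Mouse A had the highest level of its group for 21 of 28 subunits in DMSO Ova and for 21 of 28 in DMSO IC, but for 6 and 8 in the iBET groups. 4 subunits in DMSO Ova and 2 in DMSO IC were over 1 log2 unit above the mean of mice B and C in mouse A, among them Polr2i (1.49 and 1.52) and Polr3gl (1.53 and 1.17), and none was in the iBET groups. For Polr2a the same offset was -0.14 and 0.04, and for Polr3f, with 7710 bp of exon, 0.01 and -0.11. For Polr2c, with 5256 bp, it was 1.45 and 0.81, and for Polr2d, with 1015 bp, 0.01 and 0.21. The part of these offsets in the results was not tested beyond the values without those libraries. There, 7 subunits were called in Ova, with Polr1c (log2 0.59, adjusted p = 0.00999; 0.025 without the Ova one alone) and Polr2g (log2 0.48, adjusted p = 0.0158) added, and 5 in IC, with Polr2c in place of Polr3d.

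**Figure D4:**
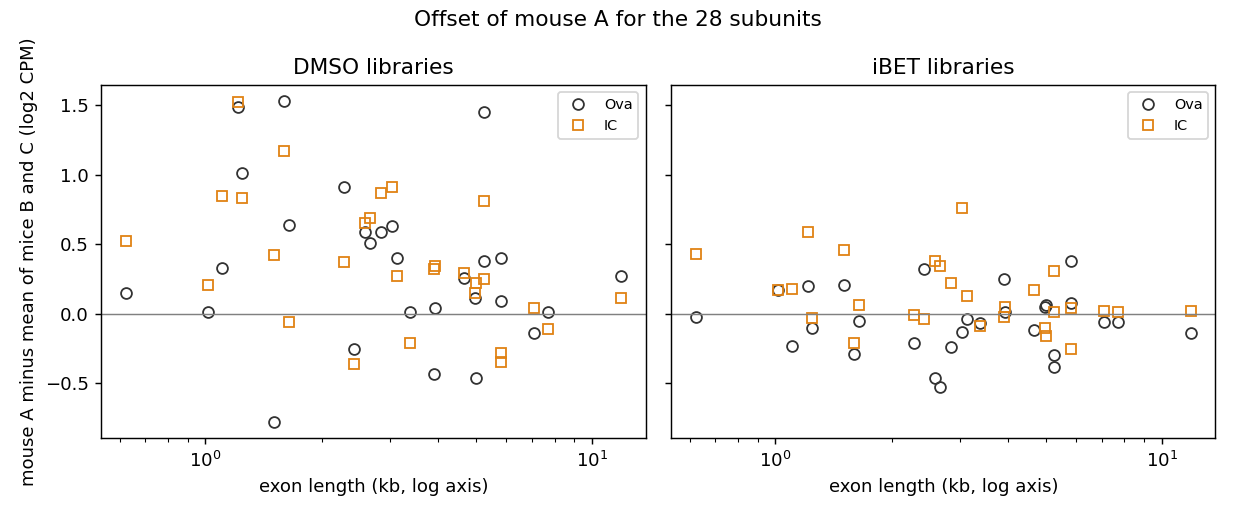
Difference in log2 CPM between mouse A and the mean of mice B and C for each of the 28 subunits, against its exon length in kb (log axis), in the DMSO libraries on the left and the iBET libraries on the right. In the DMSO libraries 4 points of Ova and 2 of IC lie above 1, and none does in the iBET libraries.

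**Figure D5:**
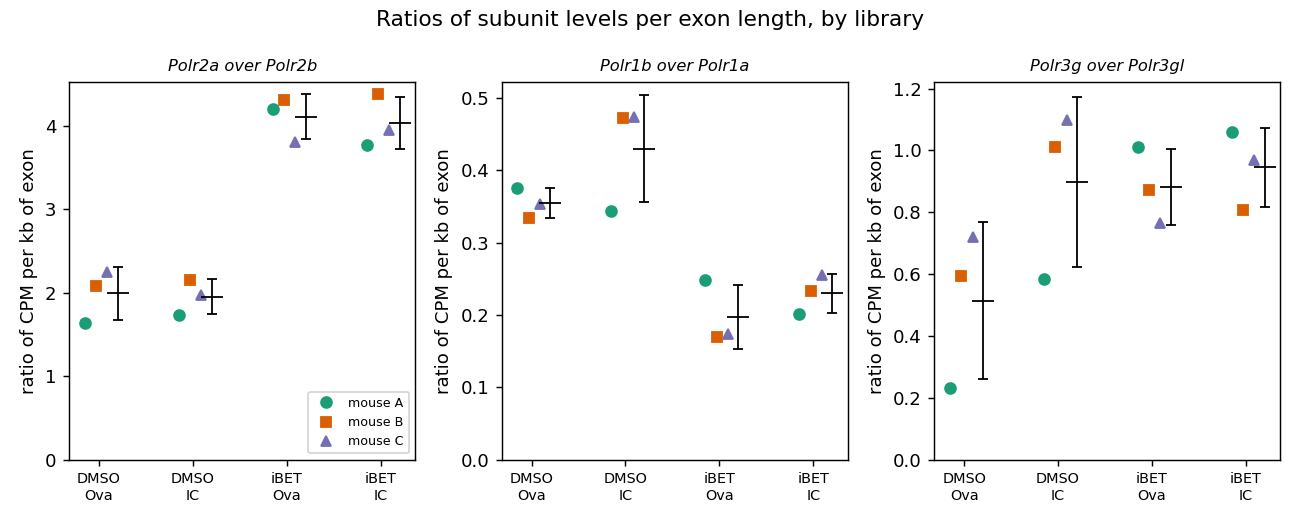
Ratio of levels per kb of exon for the Pol II catalytic pair, the Pol I catalytic pair and the alternative Pol III subunits, by library; symbols mark the mouse, and black bars are the mean ± SD of 3. The Polr2a to Polr2b ratio is 1.64 to 2.25 with DMSO and 3.77 to 4.38 with iBET.

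To show the sequence in front of the genes that moved in both drug comparisons, the 250 bases before the RefSeq start of Polr2a, Polr1b and Polr2m are given, 5′ to 3′ on the strand of the gene, in lower case with any match to a searched motif in capitals. The motifs were TATAAA, the TATA box; CACGTG, the E-box bound by MYC; and CCGGAAG, bound by ETS factors, each on both strands. The build is GRCm38.p6.
Polr2a (chr11:69758634-69758883, minus strand): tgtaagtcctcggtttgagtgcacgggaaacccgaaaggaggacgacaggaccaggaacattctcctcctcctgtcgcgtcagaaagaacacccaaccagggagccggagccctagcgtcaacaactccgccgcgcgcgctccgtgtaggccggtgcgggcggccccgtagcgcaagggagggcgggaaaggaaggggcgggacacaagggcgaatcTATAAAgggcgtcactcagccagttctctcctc
Polr1b (chr2:129100746-129100995, plus strand): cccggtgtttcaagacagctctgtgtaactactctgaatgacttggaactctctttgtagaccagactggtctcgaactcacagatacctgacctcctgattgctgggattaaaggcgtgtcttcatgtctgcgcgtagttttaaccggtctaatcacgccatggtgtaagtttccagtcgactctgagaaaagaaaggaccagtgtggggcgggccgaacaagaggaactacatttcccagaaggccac
Polr2m (chr9:71485984-71486233, minus strand): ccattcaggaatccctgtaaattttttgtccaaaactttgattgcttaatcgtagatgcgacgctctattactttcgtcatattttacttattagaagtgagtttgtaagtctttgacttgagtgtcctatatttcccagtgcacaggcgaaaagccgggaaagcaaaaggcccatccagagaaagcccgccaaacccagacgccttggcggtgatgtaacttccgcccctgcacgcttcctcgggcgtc
The Polr2a window held TATAAA, whose first base is at position -33 from the start. The windows of Polr1b, Polr2m and Polr2b held none of the 3 motifs; that of Polr2b is not printed because it lies within the annotated gene. Among the 22 subunit genes with an entry, TATAAA was found in 2 (Polr2a and Polr2c), CACGTG in 2 (Polr3c and Polr3gl) and CCGGAAG in 5 (Polr1c, Polr2f, Polr2j, Polr3b and Polr3g). Counted by promoter, these were 2, 2 and 5 of the 24 promoters of these genes. Over all 32851 RefSeq promoters of this length the 3 motifs were found in 12.4%, 6.02% and 6.91%. A match is a description of the letters and not of a bound site.

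Subunits listed under other symbols were Twistnb, Cd3eap and Znrd1 of Pol I, Crcp of Pol III and the mitochondrial polymerase Polrmt. None of these 5 was called with the drug. Znrd1 was nearest, at -0.78 ± 0.29 on the log2 scale in IC (adjusted p = 0.0556), and passed with the mouse as a block (adjusted p = 0.0211). The count in IC was 2 without mouse A's DMSO Ova or mouse B's DMSO IC library, and in Ova 1 without mouse C's DMSO Ova library.

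Factors that work with Pol I were called for 3 of 10 genes in Ova, 2 higher and 1 lower, and for 5 of 10 in IC, 2 higher and 3 lower, beside 31.3% and 34.8% of all genes. With the mouse as a block Ubtf (adjusted p = 0.0464) was added in IC. Ptrf, which releases Pol I transcripts and also builds caveolae, rose most, by 1.41 ± 0.13 on the log2 scale in Ova (adjusted p = 8.13e-06) and 0.92 ± 0.12 in IC (adjusted p = 0.00011). Tcof1, the nucleolar protein treacle, fell most, by 0.85 ± 0.12 in Ova (adjusted p = 0.000301) and 0.97 ± 0.12 in IC (adjusted p = 8.83e-05). For Pol I factors the median change was 0.03 in Ova and -0.27 in IC.

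Of 28 Pol II factors, 5 were called in Ova, 3 higher and 2 lower, and 5 in IC, 2 higher and 3 lower, or 17.9% in each beside 31.3% and 34.8% of all genes. Gtf2b, general factor TFIIB that places Pol II at the promoter, rose by 0.83 ± 0.14 on the log2 scale in Ova (adjusted p = 0.000998) and 0.52 ± 0.14 in IC (adjusted p = 0.0128). Gtf2h2, a core subunit of the TFIIH helicase complex, fell by 1.13 ± 0.16 in Ova (adjusted p = 0.000204) and 1.05 ± 0.16 in IC (adjusted p = 0.000267). Without both DMSO libraries of mouse A the count in Ova was 8 higher and 3 lower, and in IC 5 higher and 3 lower. The Gtf2b call in IC did not hold without mouse A's iBET IC library (adjusted p = 0.0653).

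Of 17 Pol III factors, 4 were called in Ova, 1 higher and 3 lower, and 3 in IC, 1 higher and 2 lower, or 23.5% and 17.6% beside 31.3% and 34.8% of all genes. Members of the same DNA-binding complex, TFIIIC, moved apart: Gtf3c1, its largest subunit, rose by 0.63 ± 0.14 on the log2 scale in Ova (adjusted p = 0.00557) and 0.73 ± 0.14 in IC (adjusted p = 0.00182), and Gtf3c6 fell by 1.70 ± 0.45 (adjusted p = 0.0144) and 1.73 ± 0.44 (adjusted p = 0.01). Without mouse A's DMSO Ova library the Ova change of Gtf3c6 was -1.13 (adjusted p = 0.0177), and without both DMSO libraries of mouse A its changes were -1.12 and -1.27. Maf1, the repressor of Pol III, was at 0.05 and 0.15 (adjusted p = 0.862 and 0.503). Without both DMSO libraries of mouse A, 4 were higher and 3 lower in Ova, and 3 higher and 3 lower in IC. With the mouse as a block, 1 was higher and 4 lower in IC.

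Of 11 genes that assemble or import the polymerases, 2 were called in Ova and 5 in IC, or 18.2% and 45.5% beside 31.3% and 34.8% of all genes. With the mouse as a block Rpap2 (adjusted p = 0.0461) was added in Ova and Gpn2 (adjusted p = 0.0306) in IC. Ruvbl1, an ATPase of the R2TP assembly complex, fell most, by 0.84 ± 0.20 on the log2 scale in Ova (adjusted p = 0.00666) and 1.04 ± 0.19 in IC (adjusted p = 0.00138). The largest rise was that of Slc7a6os, linked to nuclear import of Pol II, in Ova (0.83 ± 0.26, adjusted p = 0.0273), which lost its call without single libraries (highest adjusted p = 0.11, without mouse C's DMSO Ova library), and of Pih1d1, another R2TP part, in IC (0.57 ± 0.14, adjusted p = 0.0066). Single libraries moved these counts by over 1.5 times: to 2 or 3 for Pol I factors in IC (without mouse B's or C's DMSO Ova, mouse A's or B's iBET Ova, mouse A's DMSO IC or any iBET IC library), to 2 or 3 for Pol II factors in Ova (without mouse B's or C's DMSO Ova or any iBET Ova library) and to 3 in IC (without mouse A's or B's iBET IC library), to 6 for Pol III factors in IC (without mouse A's DMSO Ova or DMSO IC library), and to 1 for assembly genes in Ova (without mouse B's or C's DMSO Ova or iBET Ova library). No factor or assembly gene of these lists was called for IC against Ova in DMSO or in iBET.

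The products of Pol I and Pol III were read only in part by these libraries. Counts on Rn45s cannot tell the precursor from mature ribosomal RNA. Rn45s, which took most of the counts in mouse A's DMSO Ova library, was at 11470 to 74798 CPM in the other 11. Its call in Ova (log2 -5.53, adjusted p = 0.0333) rested on that library: without it the change was 0.24 (adjusted p = 0.734), and with the mouse as a block -3.90 (adjusted p = 0.28). The Pol III transcripts Rmrp and Rpph1, the RNA parts of RNases MRP and P, were not called with the drug (Rmrp -0.25 and -0.54, adjusted p = 0.447 and 0.0934; Rpph1 -0.56 and -0.43, adjusted p = 0.489 and 0.591). Rpph1 was also highest, at 7789 CPM, in that library. Of the others, Vaultrc5 was not called, and Rnu6 and Bc1, with 4 and 5 counts in all, were not tested.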

How the data were processed

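Gene counts of 12 libraries were deposited, with a second table of normalized signal. Per the labels and the study's methods, the authors trimmed reads with Trim Galore, aligned them to mm10 with HISAT2 and counted them with featureCounts; the annotation and strand setting are not given in the sources used here. The deposited signal equals the counts divided by DESeq2 size factors. The members and gene lists were chosen with earlier results of these data known. Counts were tested with edgeR 4.0.16 in R 4.3.3 (filterByExpr, TMM, robust quasi-likelihood fit, 1 term per group over 12 libraries) in 5 contrasts. Named are all called subunits, the catalytic pairs and Polr3g with Polr3gl, and in each other list the called genes that rose and fell most; the rest are given as counts, or were named after their values were seen. The same mice, A to C, served every group, so the mouse pairs libraries. Deviations from group means correlated at -0.0725 to 0.542 in 18 same-mouse pairs. In 36 pairs of different mice they correlated at -0.499 to 0.271, so the ranges overlapped. Taking out the means of groups of 3 lowers the values of different mice by itself. Alternatives used DESeq2 1.42.0, limma 3.58.1 on log2 of signal plus 1, and sva 3.50.0. The test was checked only on simulated data with the same dispersion for every gene. These held no mouse effect and no library like mouse A's DMSO Ova one, so the check does not cover such features. Of 24421 symbols, 98.5% matched the annotation that gave exon lengths. Groups of 3 cannot pass p under 0.05 by exact permutation, so none was run. 1 subunit, counted in all totals and medians, is not reported here by name.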

Additional observations from a re-analysis of the deposited data

Results flagged for a closer look

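Polr3g drew a second look because every mouse moved one way in one condition and the other way in the other: with IC it was higher in 3 of 3 mice in DMSO and lower in 3 of 3 in iBET, and with iBET it was higher in 3 of 3 in Ova and lower in 3 of 3 in IC. Both are the same contrast, a difference of responses of -0.79 on the log2 scale (SE 0.17, unadjusted p of 0.000498). It ranked 7 of 11468 genes by that p, and its adjusted p by edgeR was 0.816. Groups of 3 were not tested for outlying libraries.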

How the results depend on the processing

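The count of subunits called for IC against Ova in DMSO (1) was 0 with no filter on low counts, with the compared groups alone, at an adjusted p under 0.01 and without both DMSO libraries of mouse A, and 0 to 1 over fits that left out a replicate, the 1 being Polr3g without mouse B's DMSO IC library and Polr1b without mouse A. With iBET in Ova (5) it was 8 with 1 surrogate variable and 1 to 7 over such fits; the lowest, 1 and 2, came without mouse B and mouse C. With iBET in IC (5) it was 6 with DESeq2, with the replicate block in DESeq2 and with 1 surrogate variable (Polr2c added), 4 with no filter (Polr3d lost), 3 at an adjusted p under 0.01 and 2 to 6 over such fits, with 2 without mouse B or mouse C. The Pol II median for IC against Ova in DMSO (0.06) was 0.02 with the replicate block in edgeR and in DESeq2, 0.01 by limma on the deposited signal, 0.03 with the length trend removed, 0.01 with that and the block, -0.03 without both DMSO libraries of mouse A, and -0.10 to 0.18 without single replicates; the cause was not tested. The Pol III median with iBET in IC was -0.17 to 0.06 without single replicates. In edgeR the mouse as a block gave 6 subunits in Ova (Polr3e added) and 5 in IC, and changed no other call among the subunits. The length trend, a smooth dependence of each library on exon length, and the fits without both DMSO libraries of mouse A were chosen after seeing the data. Of 3887 values of single subunits under the alternatives, 43 lost a call, 18 gained one and none reversed.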
